A study of Mus musculus with 5 samples.

Results

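The genes described here are 10 members of the retinoid uptake and metabolism pathway: Rbp2, Adh1, Aldh1a1, Dhrs3, Bco1, Isx, Lrat, Rdh7, Rarb and Rxra. They were taken by symbol from the 27998 genes of the deposited count tables, and all 10 were found. The cells came from the epithelium of the ileum, the distal small intestine, of C57BL/6 animals that were 8 to 12 weeks of age. Sham surgery was the control (3 libraries, sham 1, 2 and 3), and small bowel resection, the surgical removal of a stretch of intestine, the treatment (2 libraries, resection 1 and 2). No genetic alteration is named for either group. The time between surgery and sampling, the number of mice per library and the length of gut removed are not given in the sources used here. Nothing says that the libraries came from separate animals, so p-values measure the spread between these libraries, which may be technical. The comparison asks whether the ileal epithelium carries a different set of transcripts after resection.

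Vitamin A reaches the enterocyte as retinol, set free from dietary retinyl esters, or as carotenoids. Inside the cell RBP2 binds retinol and retinal, BCO1 cleaves beta-carotene to retinal, DHRS3 reduces retinal to retinol, and LRAT joins retinol to a fatty acid so that it can leave in chylomicrons. A smaller flow runs from retinol to retinal (alcohol and retinol dehydrogenases such as ADH1 and RDH7) and on to retinoic acid (ALDH1A1), the ligand of the retinoic acid receptors, which pair with retinoid X receptors such as RXRA. ISX is a gut homeobox repressor, induced by retinoic acid, that acts on Bco1. These steps are best known in the proximal small intestine, where most dietary fat and vitamin A are absorbed.

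Each library was a set of single cells whose transcripts were counted as unique molecular identifiers (UMIs). The libraries held 1402 to 7233 cells and 11749028 to 41281731 UMIs, with a median of 4541 to 6239.5 UMIs per cell. Of 19404 cells 18235 were used, and any pair of libraries shared 6 to 47 cell barcodes. Clustering without the retinoid genes gave 10511 enterocyte-like, 1533 cycling-like, 3346 immature enterocyte-like, 1075 Paneth-like, 719 goblet-like and 342 T cell-like cells, and 709 cells in 2 clusters without a name. Stem cell markers lay within the cycling-like class, and neither tuft-like nor enteroendocrine-like clusters were found. Each of the 11 enterocyte-like clusters drew 90.7% to 99.8% of its cells from 1 library, so that different clusters hold this class in each library. By cluster composition over all cells, sham 1 and resection 1 (set A) overlapped by 9.88%, sham 2, sham 3 and resection 2 (set B) by 20.1% to 40.3%, and libraries of different sets by 4.08% to 6.81%. Values inside each set therefore stand beside the pooled ones. In enterocyte-like cells all 12 enterocyte markers had UMIs in every library, among them Fabp2, Sis and Apoa1.

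Levels are given as CPM, the UMIs of a gene per 1000000 UMIs summed over all cells of a class in a library. In enterocyte-like cells, where these sums ran from 3958304 UMIs in sham 1 to 21183863 in resection 2, 9 of the 10 genes had enough counts to be tested and Rarb had none. None of the 9 passed an adjusted p of 0.05 in edgeR's quasi-likelihood test, where 0.0% of the 10326 genes tested did. At an unadjusted p of 0.05 the count was 1, Rbp2, against 4.77% of all genes tested. DESeq2 called 0 of the 9, and 54 of all genes. The median log2 fold change, resection over sham, was 0.25 over these 9 genes and -0.02 over all genes tested. Of the 9 estimates 8 lay above 0 and 1 below. Rbp2 was the single gene of the 9 whose level in both resection libraries exceeded every sham library, which 8.28% of all genes tested also showed, and none lay below every sham library (6.41% of all genes tested).

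Rbp2 (ENSMUSG00000032454, chromosome 9, 98486115 to 98509781, plus strand, GRCm38) encodes the cellular retinol-binding protein of the enterocyte. In enterocyte-like cells its level was 608 CPM in sham 1, 2183 CPM in sham 2 and 934 CPM in sham 3, and 5165 CPM in resection 1 and 4001 CPM in resection 2. Both resection libraries were above all sham libraries, and among the shams sham 2 was the highest. The mean was 1242 ± 831 CPM (SD, n = 3) after sham surgery and 4583 ± 823 CPM (SD, n = 2) after resection. The log2 fold change was 1.77 ± 0.60 (SE), with an unadjusted p of 0.0199 and an adjusted p of 0.944 in edgeR's test. Inside set A it was 3.20 and inside set B 1.30. The difference passed the threshold when no filter on low counts was applied (adjusted p 0.0106 by edgeR, with 1.38% of all genes called) and when cells above 10% mitochondrial UMIs were left out (log2 fold change 2.35, adjusted p 0.0413 by edgeR, with 0.979% of all genes called), a limit that, after clustering anew, left 21 enterocyte-like cells in sham 1 in place of 704 and 294 in resection 1 in place of 2361. The median mitochondrial share of enterocyte-like cells was 14.4%, 9.21% and 7.78% in the shams and 12.3% and 9.57% after resection.

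The region before the Rbp2 start is shown because Rbp2 had the largest fold change of the 9 genes tested. The region before Bco1 is set beside it because it holds as a complete repeat the element of which the Rbp2 region has a single copy. The element, AGGTCA, is the core site of nuclear receptors such as the retinoid receptors. Both runs are the 250 bases before the RefSeq transcript start (GRCm38.p6, plus strand, 5′ to 3′), and capitals mark the element, which reads TGACCT where it lies on the minus strand.
Rbp2, chr9:98490287-98490536: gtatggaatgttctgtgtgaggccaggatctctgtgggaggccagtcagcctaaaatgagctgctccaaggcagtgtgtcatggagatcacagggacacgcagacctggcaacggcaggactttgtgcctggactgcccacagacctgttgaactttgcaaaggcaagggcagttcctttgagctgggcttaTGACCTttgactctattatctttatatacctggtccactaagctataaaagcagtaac
Bco1, chr8:117095615-117095864: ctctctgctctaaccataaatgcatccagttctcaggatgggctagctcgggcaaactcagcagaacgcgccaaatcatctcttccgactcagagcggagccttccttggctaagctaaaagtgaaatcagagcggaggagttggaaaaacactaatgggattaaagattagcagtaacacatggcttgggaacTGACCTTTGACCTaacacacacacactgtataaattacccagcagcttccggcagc
In Rbp2 the element begins 58 bases before the start. In Bco1 the repeat AGGTCANAGGTCA, in which N is any base, begins 56 bases before the start on the minus strand as TGACCTTTGACCT. Searched on both strands of the 300 bases around every start, the single element was found in 16.3% of 32851 promoters, and in 4 of the 10 genes (Rbp2, Bco1, Rdh7 and Rxra). Several of the 10 genes have more than 1 promoter, so this count of genes is not a share of promoters. In Rxra the element lies in promoter 2. The repeat, which contains 2 copies of the single element, was found in 13 promoters (0.0396%), Bco1 among them. The repeats with 2 or 5 bases between the copies, AGGTCANNAGGTCA and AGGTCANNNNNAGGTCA, were found in none of the 10 genes and in 0.00913% of all promoters each. Of 5 other motifs searched, the cores of HNF4A (0.475% of all promoters), HNF1 (0.00913%) and GATA factors (AGATAAG, 3.04%) were in none of the 10 genes, the CDX2 core (TTTATGG, 2.75%) was in Bco1, and the TATA box (TATAAA, 13.6%) in Rbp2 and Bco1. A match of letters is a description and not a measured binding site.

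The share of cells with Rbp2 was also higher in both resection libraries. With every cell thinned to 2000 UMIs, which no enterocyte-like cell fell short of, a UMI of Rbp2 was found in 51.8% of the cells in sham 1, 84.2% in sham 2 and 60.9% in sham 3, and in 94.7% in resection 1 and 90.8% in resection 2. The groups did not overlap, and the means differed by 27.1 percentage points. A two-sided exact permutation test across libraries gave p = 0.2 (adjusted over the 10 genes 0.75), where the smallest p that 5 libraries allow is 0.1. Without thinning the mean shares were 84.6% after sham surgery and 98.3% after resection. The median enterocyte-like cell carried 3.5 Rbp2 UMIs per 10000 in sham 1, 15.7 in sham 2 and 5.6 in sham 3, against 36.3 in resection 1 and 34.0 in resection 2. At the 10th percentile of cells the values were 0.0, 2.4 and 0.0 in the shams and 7.9 and 3.9 after resection. At the 90th percentile they were 15.8, 58.5 and 28.3 in the shams and 122 and 101 after resection. The separation of the groups thus ran from the low to the high end of the cells.

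**Figure D1:**
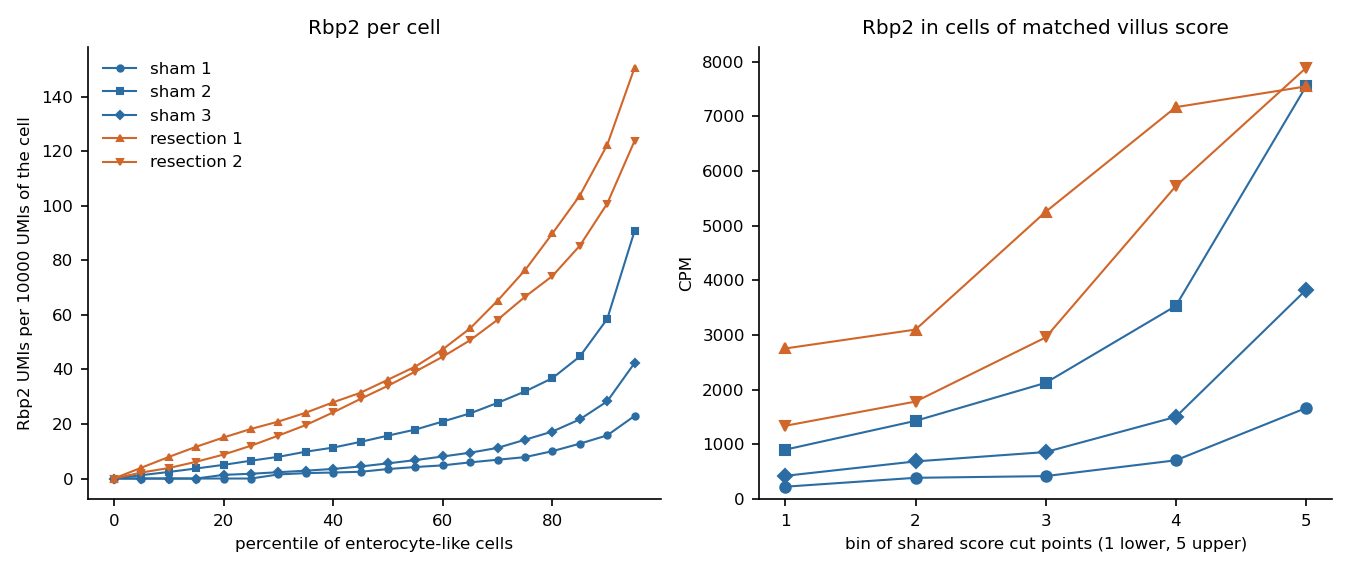
Rbp2 in enterocyte-like cells of each library. Left, UMIs of Rbp2 per 10000 UMIs of the cell (y axis) against the percentile of cells, up to the 95th (x axis), 1 line per library: both resection lines lie above the sham lines, with medians of 36.3 and 34.0 against 3.5 to 15.7. Right, CPM (y axis) in 5 bins of a villus score with cut points shared by all libraries (x axis): the lines of sham 2 and resection 1 meet in the upper bin at 7548 and 7549 CPM.

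A score stood in for position along the villus. It was the share of 9 villus-tip genes (such as Ada, Nt5e and Krt20) in the UMIs of these and 8 villus-base genes (such as Reg3b, Reg3g and Lypd8). None of them is a retinoid gene. Enterocyte-like cells were cut into 5 equal bins within each library, from the lower bin 1 to the upper bin 5. In every library Rbp2 was higher in the upper than in the lower bin: 1276 against 320 CPM in sham 1, 5568 against 895 CPM in sham 2, 2395 against 369 CPM in sham 3, 7353 against 2769 CPM in resection 1 and 8204 against 1345 CPM in resection 2. The upper bin stood 3.99, 6.22, 6.49, 2.66 and 6.10 times above the lower bin in these libraries. In resection 1 bin 4 was higher still, at 7629 CPM. In each of the 5 bins the sham libraries were all below both resection libraries.

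The score itself differed between the groups. When cut points were shared by all libraries, a choice made after seeing the data, 10.4%, 8.94% and 8.47% of the enterocyte-like cells of sham 1, 2 and 3 fell into the upper bin, against 25.1% and 27.8% after resection. Among cells of matched score the mean Rbp2 level after resection was 3.95, 2.92, 3.62, 3.37 and 1.78 times the sham mean from bin 1 to bin 5. In the upper bin the libraries nearest to each other, sham 2 and resection 1, had 7548 and 7549 CPM. The villus-base genes held most of the UMIs of the score. In shared bin 1 they summed to 88079 CPM in sham 1 and 148851 CPM in sham 2, and the villus-tip genes to 816 and 1454 CPM. Cells of matched score therefore need not be matched in position. The 12 markers of mature enterocytes summed to 26410, 57284 and 37943 CPM in the shams and 67983 and 91443 CPM in the resection libraries. Of the 12 markers 6, among them Sis and Apoa1, lay above every sham library in both, as did 8.28% of all genes tested. In Alpi, Anpep, Fabp2, Slc5a1, Krt20 and Mttp the groups overlapped. Krt20, which is also part of the score, was estimated lower (log2 fold change -0.20). The part of cell maturity in the Rbp2 difference beyond this score was not tested.

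Inside each resection library Rbp2 also varied widely between enterocyte-like clusters. In resection 1 it was 8042 CPM in a cluster led by Lct, Apoa4 and Fabp1 and 880 CPM in a cluster led by Fgf15 and Dusp5. In resection 2 it was 7351 CPM in a cluster led by Ada and Fabp2 and 1185 CPM in a cluster led by Areg. The main clusters of the shams lay at 568 CPM (sham 1), 2067 CPM (sham 2) and 820 and 934 CPM (sham 3). The lowest clusters of the resection libraries were thus in the range of the sham clusters. A further cluster, led by Reg3b and Reg3a, held 605 cells, 91.2% of them from sham 2, had 807 CPM of Rbp2 and stayed outside the named classes.

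Rbp2 was above all shams in both resection libraries in 3 further classes. In immature enterocyte-like cells it was 97.3, 259 and 175 CPM in the shams and 360 and 431 CPM after resection (log2 fold change 1.07 ± 0.49, SE). In cycling-like cells it was 88.1, 167 and 82.1 CPM in the shams and 252 and 336 CPM after resection (1.33 ± 0.41, SE). In goblet-like cells it was 465, 1406 and 346 CPM in the shams and 3594 and 2594 CPM after resection (1.97 ± 0.58, SE). In Paneth-like cells the groups overlapped, since resection 1 (261 CPM) lay below sham 2 (273 CPM), and the log2 fold change was 1.63 ± 0.55 (SE). Members above every sham in both resection libraries numbered 0 of 7 tested in Paneth-like, 2 of 7 in goblet-like (Rbp2 and Aldh1a1), 1 of 7 in cycling-like and 3 of 8 in immature enterocyte-like cells (Rbp2, Adh1 and Lrat). The shares of all tested genes in that position were 5.91% for Paneth-like, 8.35% for goblet-like, 5.5% for cycling-like and 4.99% for immature enterocyte-like cells. By edgeR the adjusted p of Rbp2 was 0.9996 to 0.9999 in these 4 classes. Members called numbered 0 in each, and 0 by DESeq2, which called 0.0105% (cycling-like) to 0.0898% (Paneth-like) of all genes tested. At an unadjusted p of 0.05 there was 1 in each, Adh1 in immature enterocyte-like cells (1.71% of all genes tested) and Rbp2 in cycling-like (1.24%), goblet-like (2.44%) and Paneth-like cells (1.75%). Genes called by edgeR were 0.0% of those tested in each of these classes apart from 0.0299% in Paneth-like cells.

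With the sham or resection libraries compared inside their set, Rbp2 was higher after resection in both sets in all of these classes. The log2 ratios inside sets A and B were 2.18 and 1.64 in Paneth-like cells, 1.51 and 1.43 in cycling-like cells and 1.93 and 0.98 in immature enterocyte-like cells. In goblet-like cells Rbp2 on TMM-scaled totals was 415 CPM in sham 1 and 3331 CPM in resection 1, and the log2 ratio inside set B was 1.54. In an edgeR fit that included the set, Rbp2 passed the threshold in cycling-like (log2 fold change 1.49, adjusted p 0.0370, with 0.0524% of all genes called) and Paneth-like cells (1.87, adjusted p 0.00647, with 0.165% called). It did not pass in enterocyte-like cells under that fit (2.15, adjusted p 0.223). The sets were drawn from the clusters of these same counts, with their number fixed at 2. The fit therefore does not adjust for a factor known from the labels.

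The T cell-like class was set beside the others as a class whose Rbp2 may come from outside the cell or from a second cell in the same droplet. T cells are not known as a source of RBP2. These 342 cells held 2530 CPM of Rbp2, 79.7% of the 3173 CPM in enterocyte-like cells. At a depth of 2000 UMIs, a UMI of Rbp2 was found in 74.3% of them, against 83.7% of enterocyte-like cells, and the median depths were 4654 and 4683 UMIs per cell. Their summed enterocyte markers were 54598 CPM, against 66323 CPM in enterocyte-like cells, beside 15968 CPM of T cell markers. In this class too Rbp2 was higher after resection, at 487, 1151 and 1263 CPM in the shams and 4519 and 3104 CPM in the resection libraries. The goblet-like level of 1881 CPM lies below that of T cell-like cells, so no expression of its own is read from it. Rbp2 was 308 CPM in immature enterocyte-like, 206 CPM in cycling-like and 263 CPM in Paneth-like cells. These levels were 8.21-fold, 12.3-fold and 9.63-fold lower than in T cell-like cells. The T cell-like level is thus not a background common to all droplets. No expression of their own is read from these levels either, but a level below that of T cell-like cells does not show that expression is absent. This holds for the other genes compared with it as well. Aldh1a1 in goblet-like cells (70.2 CPM) also lay below its T cell-like level (94.7 CPM). Lrat in immature enterocyte-like cells, at 3.40 to 6.52 CPM per library, lay near its T cell-like level of 4.81 CPM (9 UMIs). Their separations between the groups are limited in the same way.

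**Figure D2:**
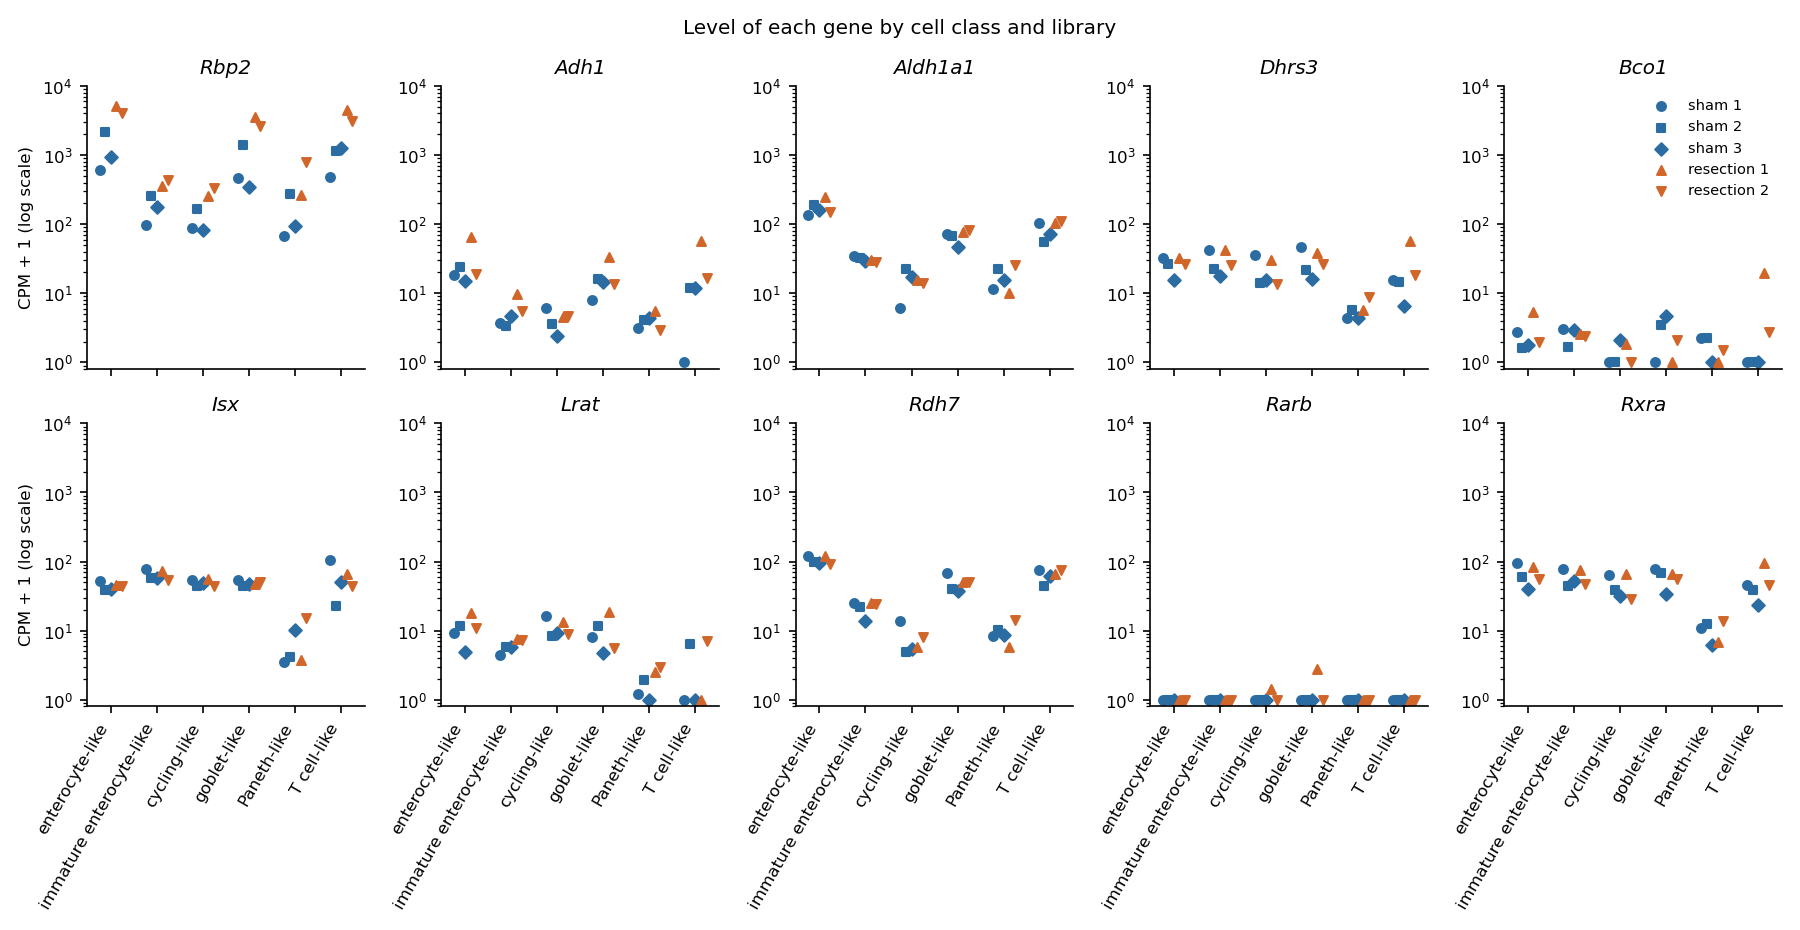
Level of each of the 10 genes (CPM + 1, log scale, y axis) in 6 cell classes (x axis), 1 point per library, with sham libraries in blue and resection libraries in orange. Rbp2 is the gene whose resection points stand above all sham points in most classes, while Isx, Rxra and Dhrs3 lie at similar levels in enterocyte-like, immature enterocyte-like and cycling-like cells.

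Among the dehydrogenases that turn retinol into retinal, Adh1 (ENSMUSG00000074207, chromosome 3, 138260991 to 138290698) encodes a cytosolic alcohol dehydrogenase and Rdh7 (ENSMUSG00000040134, chromosome 10, 127884028 to 127888817) a membrane-bound retinol dehydrogenase. Adh1 stood at 17.4 CPM in sham 1, 22.8 CPM in sham 2 and 14.2 CPM in sham 3, and at 63.2 CPM in resection 1 and 17.7 CPM in resection 2. Resection 1 alone was high, and resection 2 lay inside the sham range. The log2 fold change of 1.05 ± 0.47 (SE) had an adjusted p of 0.9997 in edgeR's test. It was 0.03 without resection 1, 1.91 inside set A and -0.11 inside set B.

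In resection 1 Adh1 was 42.0 CPM in the lower and 100.4 CPM in the upper bin of the villus score, while the upper bins of the other libraries held 11.9 to 20.7 CPM. Its highest cluster, of 945 cells and 99.8% from resection 1, was led by Sgk1, Abcb1a and Pck1 and held 109 CPM of Adh1. In immature enterocyte-like cells Adh1 was 2.72, 2.40 and 3.68 CPM in the shams and 8.89 and 4.54 CPM after resection, so that both resection libraries were above the shams (log2 fold change 1.02 ± 0.38, SE, unadjusted p 0.0288 by edgeR). These levels rest on 4 to 45 UMIs per library and lie below the 16.0 CPM of Adh1 in T cell-like cells (0 to 11.1 CPM in the shams, 56.6 and 15.6 CPM after resection), so no expression of their own is read from them. The antisense gene Gm16559 shares exon sequence with Adh1, and it had 0 UMIs in enterocyte-like cells of all 5 libraries.

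Rdh7 varied little between the libraries, with 118, 97.4 and 92.9 CPM in the shams and 119 and 90.7 CPM after resection. The log2 fold change was -0.00 ± 0.25 (SE). Its level was 100.4 CPM in enterocyte-like cells, 21.1 CPM in immature enterocyte-like and 5.59 CPM in cycling-like cells over all libraries together. The T cell-like level was 67.4 CPM, so no expression of their own is read for immature enterocyte-like and cycling-like cells. Along the villus score Rdh7 had no common direction: the upper bin was above the lower in sham 1, sham 3 and resection 2, and below it in sham 2 and resection 1.

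Aldh1a1 (ENSMUSG00000053279, chromosome 19, 20492715 to 20643465) encodes a retinal dehydrogenase that makes retinoic acid. Its levels in enterocyte-like cells were 136 CPM in sham 1, 192 CPM in sham 2 and 161 CPM in sham 3, and 243 CPM in resection 1 and 149 CPM in resection 2. The groups overlapped, and the log2 fold change was 0.19 ± 0.35 (SE). It turned to -0.07 without resection 1 and to -0.02 without sham 1. A UMI was found in 22.7%, 29.4% and 28.1% of thinned cells in the shams and in 34.1% and 23.9% after resection. The level was 178 CPM in enterocyte-like, 29.3 CPM in immature enterocyte-like and 15.3 CPM in cycling-like cells, an order that all 5 libraries shared, and 14.8 CPM in Paneth-like cells. The T cell-like level was 94.7 CPM, so no expression of their own is read for immature enterocyte-like, cycling-like and Paneth-like cells. The last 500 bases of the Aldh1a1 transcript are identical to those of Aldh1a7 at 77.5% of positions. Whether any read was assigned to the wrong gene of the pair was not tested. Aldh1a7 was also the gene whose levels tracked Aldh1a1 most closely.

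Dhrs3 (ENSMUSG00000066026, chromosome 4, 144892827 to 144928209), the retinal reductase, and Lrat (ENSMUSG00000028003, chromosome 3, 82892579 to 82903973, minus strand), the retinol acyltransferase, act in the direction of storage and export. Dhrs3 was 31.8, 25.4 and 14.7 CPM in the shams and 31.4 and 25.6 CPM after resection. The resection libraries lay inside the sham range, and the log2 fold change was 0.25 ± 0.30 (SE). Unlike Rbp2, it was at a like level in enterocyte-like (25.2 CPM), immature enterocyte-like (27.2 CPM) and cycling-like cells (17.5 CPM). Sham 1 and resection 1, the libraries of set A, had the highest Dhrs3 in each of these 3 classes. In T cell-like cells Dhrs3 was 17.6 CPM.

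Lrat was 8.34, 10.8 and 3.86 CPM in the shams and 16.9 and 9.77 CPM in resection 1 and 2. Resection 2 lay inside the sham range, and the log2 fold change was 0.75 ± 0.43 (SE). It was 0.44 without resection 1 and without sham 3, and 1.23 without sham 2. In the upper villus bin both resection libraries (29.9 and 17.4 CPM) were above the shams (7.90, 6.73 and 6.96 CPM, from 6, 8 and 13 UMIs). The upper bin had the same separation in Rbp2, Adh1, Bco1 and Isx, and in 10.1% of all genes tested in enterocyte-like cells. For Isx the gap was narrow, with at most 38.0 CPM in the shams and 39.3 and 41.8 CPM after resection. For Adh1 the highest sham had 19.3 CPM and resection 2 had 20.7 CPM. The upper bin of Lrat stood at 3.16 times the lower in resection 1 and 3.11 times in resection 2, against 0.839, 0.621 and 2.60 times in sham 1, 2 and 3. With shared cut points the upper bin also separated the groups in Lrat, and the ratio of its means was 2.79. The values of sham 1, 2 and 3 there rest on 3, 4 and 6 UMIs. Rbp2, Adh1, Dhrs3, Bco1 and Isx were separated in that bin too, and the share of all genes was not computed for it. These differences along the score were not tested.

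**Figure D3:**
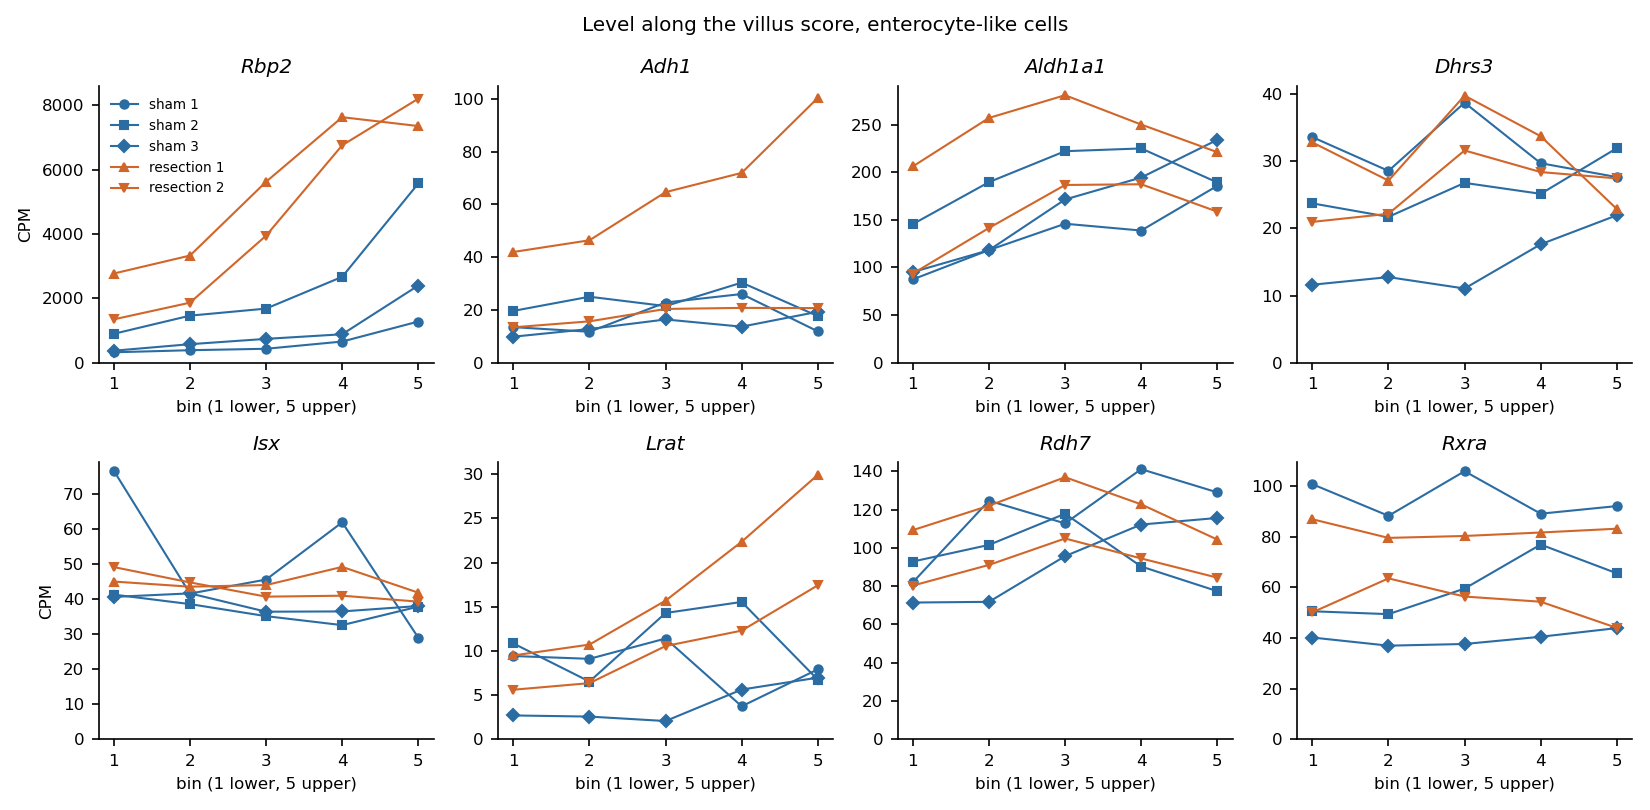
Level (CPM, y axis from 0, own scale per gene) of 8 genes in 5 bins of the villus score cut within each library (x axis, bin 1 lower, bin 5 upper), 1 line per library. Rbp2 is higher in the upper than in the lower bin in all 5 libraries, Adh1 reaches 100.4 CPM in resection 1, and Lrat reaches 29.9 and 17.4 CPM in the resection libraries.

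Bco1 (ENSMUSG00000031845, chromosome 8, 117095854 to 117133720), which cleaves beta-carotene, was close to the limit of detection. In enterocyte-like cells it had 7, 5 and 9 UMIs in the shams, against 57 and 21 UMIs in the resection libraries. As levels these were 1.77, 0.625 and 0.789 CPM in the shams and 4.35 and 0.991 CPM after resection, with resection 1 high and resection 2 inside the sham range. The log2 fold change was 1.35 ± 0.66 (SE) with an adjusted p of 0.9997 by edgeR, and 0.11 without resection 1. In resection 1 the level reached 13.6 CPM in the upper villus bin, from 1.02 CPM in the lower. In the other 4 libraries the highest bin held 3.72 CPM (sham 1), and in the upper bin resection 2 had 2.95 CPM (10 UMIs) against at most 1.61 CPM (3 UMIs) in a sham.

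Isx (ENSMUSG00000031621, chromosome 8, 74873173 to 74893506), the homeobox repressor of Bco1, was nearly the same in all libraries. In enterocyte-like cells it was 50.8, 37.4 and 38.6 CPM in the shams and 44.7 and 43.5 CPM after resection, with a log2 fold change of 0.05 ± 0.23 (SE). Along the villus score the upper bin lay between 29.0 and 41.8 CPM and the lower bin between 40.6 and 76.6 CPM. Isx was as high in immature enterocyte-like (60.01 CPM) and cycling-like cells (47.2 CPM) as in enterocyte-like cells (42.4 CPM), and low in Paneth-like cells (4.82 CPM). In all 5 libraries immature enterocyte-like cells held more Isx than enterocyte-like cells. The T cell-like level of Isx was 42.8 CPM.

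A ratio to Rbp2 within each library sets the classes side by side. Per 100 UMIs of Rbp2, enterocyte-like cells had 8.35, 1.71 and 4.13 UMIs of Isx in the shams, against 0.866 and 1.09 in the resection libraries. Cycling-like cells of sham 1 had 21 UMIs of Isx and 35 of Rbp2, and per 100 UMIs of Rbp2 the other shams had 26.2 and 57.6 and the resection libraries 21.9 and 12.7. The ratio was higher in cycling-like cells in every library. It was 22.9 for Isx, 18.9 for Rxra and 8.47 for Dhrs3 in cycling-like cells over all libraries, against 1.34, 1.93 and 0.794 in enterocyte-like cells and 1.69, 1.73 and 0.698 in T cell-like cells. For Rdh7 it was 2.71 in cycling-like, 3.16 in enterocyte-like and 2.66 in T cell-like cells. Immature enterocyte-like cells held 1381 UMIs of Isx and 7096 of Rbp2 over all libraries. The source of these transcripts in each class was not tested.

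Rxra (ENSMUSG00000015846, chromosome 2, 27676440 to 27762957) encodes a retinoid X receptor, the partner of several nuclear receptors. It was 95.5, 58.9 and 39.6 CPM in the shams and 82.4 and 54.3 CPM in the resection libraries, which lay inside the sham range. The log2 fold change was 0.08 ± 0.33 (SE), and -0.09 and 0.09 inside sets A and B. Like Dhrs3 it was highest in sham 1 and resection 1, in enterocyte-like, immature enterocyte-like and cycling-like cells alike. Its level over all libraries was 61.3 CPM in enterocyte-like, 55.1 CPM in immature enterocyte-like, 39.0 CPM in cycling-like and 9.18 CPM in Paneth-like cells, and 43.9 CPM in T cell-like cells.

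Rarb (ENSMUSG00000017491, chromosome 14, 16430839 to 16819156, minus strand), a retinoic acid receptor whose gene is itself a target of retinoic acid in many tissues, was not detectable in enterocyte-like cells. None of 10511 cells had a UMI, which allows a share of up to 0.0285% of cells with a UMI. Among all 17184 cells of the 5 epithelial classes there were 2 UMIs, 1 in a cycling-like and 1 in a goblet-like cell, both from resection 1. Its exons overlap those of Top2b on the opposite strand.

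**Figure D4:**
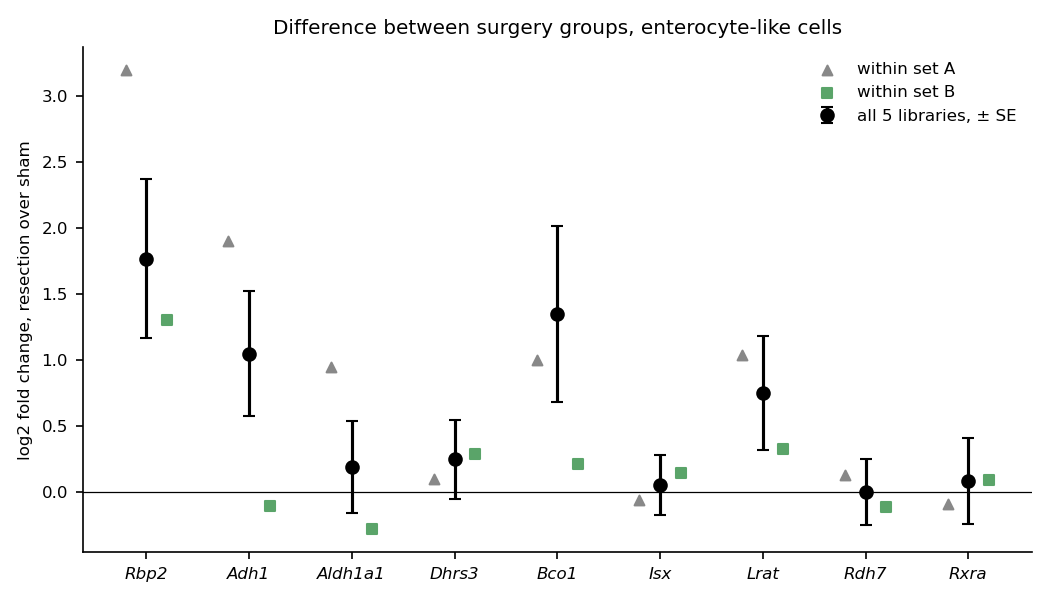
Difference between surgery groups in enterocyte-like cells for the 9 genes tested. The y axis is the log2 fold change, resection over sham; black points with bars are the edgeR estimate over all 5 libraries ± SE, triangles the ratio inside set A and squares inside set B. Rbp2 is high in both sets (3.20 and 1.30), whereas Adh1 is high in set A (1.91) and not in set B (-0.11).

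Over all epithelial cells together, 7 of the 9 genes tested lay above every sham library in both resection libraries, where 18.5% of all 11761 tested genes did. These were Rbp2, Adh1, Aldh1a1, Dhrs3, Isx, Lrat and Rdh7. In the same sums Paneth-like cells, in which most of these genes were low, made up 4702730 of 10811981 UMIs in sham 1. They made up 3177303 of 18490844 UMIs in sham 2 and 1176446 of 21594930 in sham 3. After resection they made up 4031182 of 25061851 UMIs in resection 1 and 2054378 of 35728870 in resection 2. The part of cell composition in these separations was not tested. By edgeR 0 of the 9 were called (0.0% of all genes tested), and 2 had an unadjusted p under 0.05 (Rbp2 and Adh1, against 3.15% of all genes tested). DESeq2 called 0 of the 9, and 0.323% of all genes tested. Rbp2 was 281, 1161 and 562 CPM in the shams and 2918 and 2666 CPM after resection, and edgeR estimated 1.88 ± 0.59 (log2 fold change, SE, adjusted p 0.99996).

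Thinned to 2000 UMIs, 22.3%, 7.65% and 22.9% of the enterocyte-like cells of sham 1, 2 and 3 had a UMI of none of the 10 genes, against 2.67% in resection 1 and 5.08% in resection 2. Cells with 3 of the 10 genes made up 10.1%, 12.1% and 9.66% in the shams and 19.0% and 12.0% in the resection libraries. Both counts include Rbp2, with a UMI in a mean of 65.7% of thinned cells after sham surgery and 92.8% after resection. A difference in the other genes, apart from Rbp2, was not tested with these counts.

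Of 51 other genes of retinoid transport and metabolism, 48 were in the count tables and 24 had enough counts in enterocyte-like cells to be tested. By edgeR 0 were called (0.0% of all genes tested), and 3 had an unadjusted p under 0.05 (Cd36, Retsat and Dhrs9, against 4.77% of all genes tested). DESeq2 called 0 of the 24, and 0.523% of all genes tested. Dhrs9, a dehydrogenase with 48 UMIs in this class, was the one of the 3 estimated lower (log2 fold change -1.92 ± 0.82, SE), with 1.26, 0.375 and 2.37 CPM in the shams and 0.229 and 0.472 CPM after resection, so that the groups overlapped. Of the 24 estimates 17 were above 0 and 7 below, with a median log2 fold change of 0.15 against -0.02 over all genes. Of the 24 genes 5 (Plb1, Adh6a, Retsat, Cd36 and Rdh5) were above every sham in both resection libraries, as were 8.28% of all genes tested. A further 11 genes of the list had no UMI in enterocyte-like cells, among them the retinoic acid hydroxylases Cyp26a1 and Cyp26c1 and the retinol uptake receptor Stra6.

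Plb1, the brush-border phospholipase that also splits retinyl esters, was 603, 534 and 174 CPM in the shams and 1086 and 668 CPM after resection (log2 fold change 0.98 ± 0.49, SE). Cd36, a fatty acid and carotenoid transporter, was 6.32, 5.63 and 1.67 CPM in the shams and 32.6 and 8.45 CPM after resection (2.15 ± 0.62, SE, adjusted p 0.718 by edgeR). Without resection 1 its log2 fold change was 1.04. Retsat, a retinol saturase, was 24.5, 16.9 and 21.2 CPM in the shams and 52.3 and 31.0 CPM after resection (0.95 ± 0.26, SE, adjusted p 0.677 by edgeR). Adh6a, an alcohol dehydrogenase, was 87.4, 117 and 140 CPM in the shams and 192 and 162 CPM after resection (0.56 ± 0.34, SE). In each of these 4 the groups did not overlap and the adjusted p missed the threshold.

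The other genes of the list with at least 20 CPM overlapped between the groups. Dgat1, which esterifies diacylglycerol and retinol, had a log2 fold change of 0.12 ± 0.33 (SE). The reductase Dhrs4 was at 0.10 ± 0.34 (SE), and Aldh1a7 was at 0.08 ± 0.27 (SE). The carotenoid oxygenase Bco2 was at -0.11 ± 0.27 (SE) and the retinoic acid receptor Rara at -0.08 ± 0.24 (SE). For the dehydrogenases the values were 0.19 ± 0.30 (SE) in Rdh14, 0.36 ± 0.35 (SE) in Rdh16 and -0.07 ± 0.49 (SE) in Adh5.

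Genes with the most similar pattern were sought by Pearson's r on log2(CPM + 10), over 28 sums of a class in a library with at least 20 cells and among 6507 genes. These sums share libraries and depth, so the values are descriptions. Rbp2 was most like Sepp1 (r = 0.98), a selenoprotein, Apoc3 (0.96), an apolipoprotein, and Cyp4v3 (0.95). Aldh1a1 was most like Aldh1a7 (0.96), Dpp4 (0.96), a brush-border peptidase, and Slc3a1 (0.96), an amino acid transporter subunit. For Adh1 the nearest were Mfsd7b (0.93), Slc36a1 (0.93) and Sec24d (0.92). For Rdh7 they were Aim1l, Tmc5 and 1810011O10Rik (0.97 each). Isx was most like Rnpep (0.98), Etfb (0.97) and Cd2ap (0.97). Among the genes nearest to Dhrs3 were Fbrsl1 and Ube4b (0.95 each). Rxra was most like Kif1c, Kdelr1 and Clcn3 (0.97 each).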

How the data were processed

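Droplet single-cell RNA sequencing (3' kit, v2 chemistry) was applied to ileal epithelium of 3 sham and 2 resection libraries, grouped by the labels. The authors deposited raw UMI counts per gene and cell, made with Cell Ranger per the labels, which give its version only with a question mark. The genome builds mm10 and GRCm38 come from the submitters' processing notes. Gene identifiers and barcodes are deposited as text and served only to name rows and columns. The members, gene lists and tests were chosen with earlier results of these data known.

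Cells with at least 500 genes and at most 20% mitochondrial UMIs were kept, and 720 likely doublets (3.80%) were removed, the cells most like simulated doublets, at 0.8% per 1000 cells. Of 56 repeated symbols 1 row each was used. The clustering used 2000 variable genes without mitochondrial and retinoid genes, 30 principal components, 20 neighbours and the Leiden algorithm (leidenalg 0.10.2, resolution 1), and clusters were named from marker lists. Retinoid genes stayed in the tests.

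Counts were summed per library and class (at least 20 cells in each library) and tested over all genes by quasi-likelihood in edgeR 4.0.16 (TMM scaling, filterByExpr, two-sided, Benjamini-Hochberg, threshold 0.05) in R 4.3.3. CPM values are per total UMIs of the sum, and ratios inside a set use TMM-scaled totals. The standard error is the log2 fold change divided by the square root of F. Alternatives were other size factors, no filter, DESeq2 1.42.0, a replicate block, the set as a term, leaving out each library, a 10% mitochondrial limit, doublets kept, and scaling within libraries before clustering. In simulated counts of 10240 genes for enterocyte-like cells, the dispersion was set to 0.05. There 47% of genes changed 2-fold and 100% of those changed 4-fold were recovered, with 2.65% false calls. In the deposited counts of this class Rbp2, at a log2 fold change of 1.77 ± 0.60 (SE), had an adjusted p of 0.944 by edgeR. Recovery at the spread between the 5 libraries was not tested. Shares with a UMI were compared by exact permutation after thinning. Limits for a count of 0 use 3 counts and cover counting error only.

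Named were all 10 members, genes of the retinoid list with at least 20 CPM in enterocyte-like cells or past the threshold, and the 3 genes most like each member that reached 20 CPM in a class, of which 1 is not reported here. Cd36, Rdh5, Dhrs9, Cyp26a1, Cyp26c1, Stra6, Rbp7, Pnliprp2 and Scarb1 were named after their values were seen. Gene positions are from the GENCODE annotation of GRCm38, and promoter sequences from RefSeq (GRCm38.p6), in which all 10 members matched.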

Additional observations from a re-analysis of the deposited data

How the results depend on the processing

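The number of members past the threshold was 0 in every class under most alternatives. It was 1, Rbp2 in each case, in enterocyte-like cells without a filter on low counts and with at most 10% mitochondrial UMIs, and in goblet-like cells without a filter, where 1.38%, 0.979% and 0.226% of all genes passed. With the library set as a term it was 1 in cycling-like and in Paneth-like cells, where 0.0524% and 0.165% of all genes passed. Without a filter 1 other retinoid gene, Cd36, passed in enterocyte-like cells (log2 fold change 2.18, adjusted p 1.37e-07 by edgeR, which then tested 15857 genes).

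With the replicate number as a block, members called were 1 (Rbp2) in all epithelial cells (log2 fold change 2.02), in immature enterocyte-like (1.27), cycling-like (1.18), goblet-like (1.85) and Paneth-like cells (1.63), and 0 in enterocyte-like cells (2.00, adjusted p 0.387 by edgeR). Of all genes 3.06%, 1.07%, 0.471%, 1.62%, 0.614% and 0.0% passed in these fits, in this order. The labels do not say that the numbers pair libraries, and sham 3 has no partner. Deviations from the group means of same-numbered libraries correlated at 0.577 (number 1) and 0.144 (number 2) across genes. Sham 3 and resection 2, which share no number, stood at 0.553, and with 2 resection libraries the values for resection 1 and 2 are equal with opposite sign, so the numbers are not read as a pairing.

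Rbp2 stayed positive under every alternative listed, from 1.39 to 2.55 when 1 library was left out in enterocyte-like cells. The sign turned for log2 fold changes close to 0: Isx was -0.012 at 10% mitochondrial UMIs, Rdh7 0.0062 with doublets kept and 0.0236 without a filter, and Rxra -0.14 with the block. Leaving out 1 library gave ranges of -0.0739 to 0.415 for Aldh1a1, -0.0348 to 0.137 for Isx, -0.0919 to 0.0895 for Rdh7 and -0.129 to 0.300 for Rxra. The difference in the share of cells with a UMI, in percentage points, turned for Dhrs3 (1.20 without thinning, 0.320 at 1000 UMIs), Bco1 (-0.0608 at 1000 UMIs), Isx (0.804 at 1000 UMIs), Rdh7 (-1.09 both without thinning and at 10% mitochondrial UMIs) and Rxra (-0.0489 without thinning). Leaving out 1 library gave differences of -0.0329 to 8.18 for Adh1, -2.89 to 7.30 for Aldh1a1, -0.672 to 0.573 for Dhrs3, -0.0347 to 0.816 for Bco1, -1.39 to 0.128 for Isx, -0.617 to 2.89 for Rdh7 and -1.69 to 3.25 for Rxra. The cause of these turns was not tested. The 10% limit was not run in goblet-like, cycling-like and immature enterocyte-like cells, where sham 1 kept 0, 7 and 15 cells, and rests on 21 cells of sham 1 in enterocyte-like cells.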

Other observations

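Genes of the retinoid list that are no members of the 10 had class patterns of their own. Rbp7, a further cellular retinol-binding protein, stood at 96.4 CPM in cycling-like and 52.4 CPM in immature enterocyte-like cells and at 3.66 CPM in enterocyte-like cells, as means over the 5 libraries. This is the opposite order to Rbp2, which over the summed libraries was 3173 CPM in enterocyte-like, 308 CPM in immature enterocyte-like and 206 CPM in cycling-like cells. Pnliprp2, a lipase related to the pancreatic enzymes, stood at 362 CPM in Paneth-like cells and 5.18 CPM in enterocyte-like cells. Scarb1, a lipoprotein and carotenoid receptor, had 1 UMI in all enterocyte-like cells of the 5 libraries together. None of these class differences was tested.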
